A study of Mus musculus with 11 samples.

Results

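Germinal center B cells of wild-type mice were described on their own, from the 5 WT libraries of the 11 libraries in the series. Of the 48593 genes in the table, 16526 had a mean normalized read count of at least 10 over these 5 libraries and form the set described here, and 23705 were at 0 in all 5. The mice were labelled Crebbp+/+;Ep300+/+;Cg1cre/+, so both acetyltransferase genes were intact and 1 copy of the Cg1 Cre allele was present in every WT animal. This allele expresses the Cre recombinase together with transcripts of the Ighg1 constant region, and reads of the modified and the unmodified Ighg1 allele are not told apart in these counts. The mice were littermates from a Crebbp+/- parent carrying Cg1cre/+ and a Crebbp+/- parent without Cre. They had received sheep red blood cells into the peritoneum, and spleen cells that carried B220, PNA and CD95 were sorted 12 days later. The libraries are named by the number in their label, as WT_4, WT_7, WT_41, WT_46 and WT_288. Age, sex and sequencing run were not given in the labels, and no label states that each library is a separate animal, so the spread between libraries may be partly technical. No knockout library was compared.

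Germinal centers are structures that form in lymphoid follicles after immunization, where B cells divide rapidly in a dark zone and are tested for antigen binding in a light zone. In these cells the antibody variable regions acquire mutations and the heavy chain genes undergo class switching, in which the constant region of the heavy chain is exchanged. The transcriptional repressor BCL6 maintains the program, and the receptor S1PR2 with its G protein keeps the cells inside the follicle. Many proteins of this program belong to families of paralogs, genes that arose by duplication and often encode interchangeable products, so which paralog a cell uses is part of its description.

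Depth ran from 53550726 reads in WT_7 and 58018357 in WT_46 through 82380484 in WT_41 and 85422179 in WT_4 to 132861266 in WT_288. Values are normalized read counts. Levels are compared between genes only as reads per kilobase, the normalized count divided by the summed length of the gene's exons in kilobases. Errors are SD over the 5 libraries unless stated. A count of 0 allows up to 3 reads, which correspond to a normalized count of 1.76 in WT_288, the deepest library, and 4.36 in WT_7, the shallowest. This limit covers counting error only. WT_46 stood farthest from the rest: 7.96% to 10.4% of genes differed at least 2-fold between it and another library, against 5.004% to 6.68% between the other 4.

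The label was checked against 4 defining genes, and all 4 were high. Mki67, a nuclear protein of dividing cells, stood at 266525 in WT_7, 250420.0 in WT_4, 268520.0 in WT_288, 257723 in WT_41 and 259769 in WT_46. S1pr2 stood at 36703 in WT_7, 37378 in WT_4, 36989 in WT_288, 36464 in WT_41 and 41178 in WT_46. For Bcl6 the counts were 37399.7 in WT_7, 35900.1 in WT_4, 37523 in WT_288, 35859 in WT_41 and 29529 in WT_46. Fas, which encodes the sorted marker CD95, was counted at 6912 in WT_7, 6275 in WT_4, 6836 in WT_288, 6963 in WT_41 and 7121 in WT_46. The 5 libraries lay close together for each gene, with a coefficient of variation (CV, the SD as a percentage of the mean) between 2.78% for Mki67 and 9.34% for Bcl6. WT_46 was the lowest library for Bcl6 and the highest for S1pr2 and Fas. Per kilobase the order was Mki67 (25901 ± 721, n = 5), Bcl6 (5260.0 ± 491), S1pr2 (4735 ± 245) and Fas (3308 ± 156). Mki67 lay above 99.4% of the genes described, and Fas, the lowest of the 4, above 92.3%. The genes lie on chromosome 7 (135689784 to 135716361, Mki67), chromosome 9 (20962361 to 20976781, S1pr2), chromosome 16 (23965052 to 23988852, Bcl6) and chromosome 19 (34290666 to 34327772, Fas) of GRCm38.

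All 17 further germinal center genes were in the set, with a median rank above 97.9% of genes. Highest per kilobase was Neil1 (28013 ± 2258), a DNA glycosylase, followed by Mef2b (21184 ± 2855), a transcription factor upstream of Bcl6. Tnfrsf13c, the receptor for the survival factor BAFF, stood at 18008 ± 1877 and Hmces, which binds abasic sites in DNA, at 15587 ± 894. Basp1 (13735 ± 1297) came next. Nuggc, a GTPase gene of germinal centers, stood at 31777 in WT_7, 30802 in WT_4, 31994 in WT_288, 31724 in WT_41 and 31837 in WT_46, a CV of 1.49%, the lowest within this list. Ccdc88a was the lowest of the 17 per kilobase at 183 ± 64.6, with 3222 in WT_46 and 1537 to 1875 in the other libraries.

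The 12 antigen receptor and coreceptor genes summed to 189934 ± 12605 reads per kilobase. The signalling chains of the B cell receptor were close to each other, with Cd79b at 44732 ± 4498 and Cd79a at 43162 ± 3240.0. Also high were the inhibitory receptor Cd22 (20020.5 ± 2295), Ms4a1, which encodes CD20 (18515 ± 1842), and the tetraspanin Cd37 (14514 ± 906). WT_46 was the lowest library for 9 of the 12, against 25.9% of all genes described. The 10 dark zone genes were held within narrow limits, at a summed 44751 in WT_7, 48079.5 in WT_4, 47124 in WT_288, 45376 in WT_41 and 44995 in WT_46. The 14 light zone genes summed to 22872 in WT_7, 24242 in WT_4, 22128 in WT_288, 23660.3 in WT_41 and 18323 in WT_46. WT_46 had the lowest light zone sum and the lowest value for 10 of the 14 genes. Its ratio of light zone to dark zone sum was 0.407, and the ratio in the other libraries ran from 0.4696 to 0.521. Most of the gap in the light zone sum lay in Cd83 alone, at 5035 reads per kilobase in WT_46 and 8368 to 9141 in the others. The ratio therefore does not describe the list as a whole. In bulk RNA, fewer cells of a type and less RNA per cell cannot be told apart.

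Among light zone genes Cd83, an activation marker, led with 22706 in WT_7, 23511 in WT_4, 21521 in WT_288, 23369 in WT_41 and 12951 in WT_46, with WT_46 below the range of the other libraries. Nfkbia, the inhibitor induced by NF-kB, showed another order, with 6819 in WT_46 and 4574 to 5875 elsewhere. Cd86 (2480.0 ± 292 per kilobase), a costimulatory ligand, Myc (1733 ± 284), Cd40 (1311 ± 194) and Batf (1091 ± 205) completed the 6 highest. The dark zone list was led per kilobase by Cdc20 (10619.7 ± 530.5), a mitotic activator, and the chemokine receptor Cxcr4 (10609.9 ± 478), then Plk1 (7049.6 ± 250.3), Ccnd3 (3614 ± 474), Polh (3548 ± 160.3) and Ccnb1 (3304 ± 299).

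Markers of other B cell states were mixed. Of 9 plasma cell markers 8 were in the set, but the sum of 21722 ± 1366 per kilobase rested on Jchain (16787 ± 1409), the joining chain of secreted antibody, and Xbp1 (3719.8 ± 252). Sdc1, the surface marker CD138, stood at 139.6 in WT_7, 109.5 in WT_4, 119 in WT_288, 137 in WT_41 and 68.3 in WT_46, and Tnfrsf17, which encodes BCMA, at 0 in WT_7, 0 in WT_4, 1.17 in WT_288, 5.62 in WT_41 and 3.94 in WT_46. The naive and memory markers summed to 10428 ± 1928, led by Fcer2a (5345 ± 1442), which encodes CD23, and Il4ra (2741 ± 301). Ccr7 stood at 71.4 in WT_288 and 241 to 281 in the others, and WT_288 was the lowest library for 7 of the 10 genes of this list, against 17.1% of all genes described. Of the marginal zone and B1 markers, Dtx1, a Notch pathway ubiquitin ligase, stood at 3129 ± 182, and Cd5 at 10.1 ± 3.102.

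Genes that define other blood and stromal cells were at or near 0, with exceptions. None of the 7 neutrophil markers reached a mean of 10, and S100a8, Ly6g, Elane, Mpo and Retnlg had no read in any library. The NK cell genes Ncr1 and Eomes, the plasmacytoid dendritic gene Siglech, the erythroid gene Slc4a1 and the fibroblast gene Col3a1 also had none. Of 13 T cell markers 6 were in the set. Cd3e, a chain of the T cell receptor complex, had 3.51 in WT_288 and 0 in the other 4, and Themis had at most 2.34. The kinase gene Lck stood at 8782 in WT_7, 10263 in WT_4, 9646 in WT_288, 10932 in WT_41 and 8966 in WT_46. Cd247, the zeta chain of the same receptor complex, stood at 1759 in WT_7, 1525 in WT_4, 1928 in WT_288, 1544 in WT_41 and 1647 in WT_46. Of the windows of 31 bases in Cd247, 57.7% also occur in another gene, so its value is uncertain. The T cell list summed to 3754 ± 296 per kilobase, of which Lck made up 3318. Of 14 macrophage and monocyte markers 11 were in the set. Their sum was 1598 in WT_7, 1858 in WT_4, 1474 in WT_288, 1861 in WT_41 and 3653 in WT_46. WT_46 was the highest library for 9 of the 11, against 26.7% of all genes described. The exceptions were Hmox1, at 481 in WT_4 and 418 in WT_46, and Vcam1, at 44.5 in WT_288 and 42.0 in WT_46. Mpeg1, a pore-forming protein of phagocytes, led that list at 2565 in WT_7, 3646 in WT_4, 2212 in WT_288, 2957 in WT_41 and 6428 in WT_46. Lyz2, a lysozyme of myeloid cells, stood at 58.2 in WT_7, 94.7 in WT_4, 16.4 in WT_288, 227 in WT_41 and 1014 in WT_46. The defining genes were low but not absent, with Csf1r at 365 to 488, Adgre1, which encodes F4/80, at 26.2 to 89.3, C1qb at 8.72 to 108, and Cd14 at 0 to 10.5. WT_46 held the top of all 4 ranges. Hbb-bt, a beta globin gene, stood at 243 in WT_7, 233 in WT_4, 252 in WT_288, 301 in WT_41 and 502 in WT_46, and the alpha globin gene Hba-a1 at 42.2 in WT_288 with 0 in the other 4. Of the windows of 31 bases in Hbb-bt and Hba-a1, 59.4% and 75.5% also occur in another gene, so the globin values are uncertain.

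**Figure D1:**
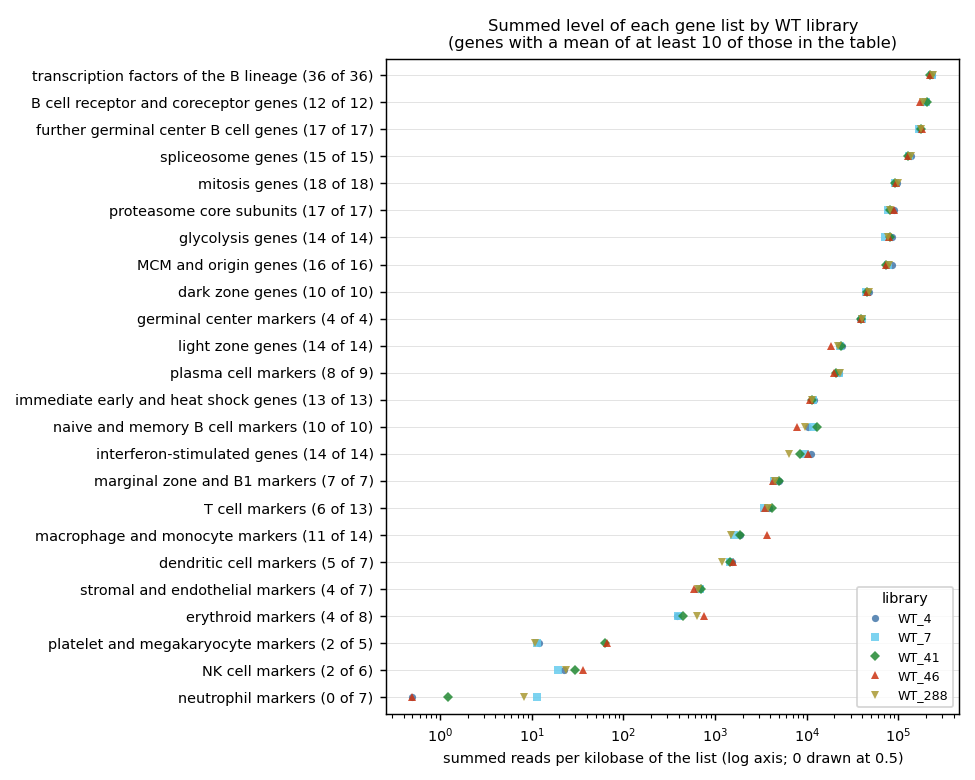
Summed reads per kilobase (x axis, log scale) of each gene list in each WT library, 1 symbol per library, with the number of genes of mean at least 10 and the number in the table beside each list name. B lineage, proliferation and housekeeping lists lie at the top with their 5 symbols close together, while the macrophage and monocyte list shows WT_46 at 3653 apart from the other libraries and the neutrophil list lies near 0.

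Ranks at the top of the transcriptome were stable between libraries. Of the 100 genes highest per kilobase in each library, 89 were shared by all 5, and of the top 1000, 904 were. The top 10 genes by count took 5.58% ± 0.0667 of all values, the top 100 took 17.5% ± 0.306, and the top 1000 took 51.7% ± 0.476. Protein coding genes made up 74.8% of the set and 96.2% of its values. The immunoglobulin genes made up 0.887% in WT_46 and 1.06% to 1.12% in the other 4.

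The highest nuclear coding gene per kilobase was Cd74, the invariant chain that escorts MHC class II, at 437700.0 in WT_7, 477762 in WT_4, 422204 in WT_288, 482415 in WT_41 and 431845 in WT_46 normalized counts. All 5 values lay within a CV of 6.16%. Eef1a1, which brings aminoacyl-tRNA to the ribosome, stood at 597629 in WT_7, 683956 in WT_4, 612211 in WT_288, 624753 in WT_41 and 584891 in WT_46, highest in WT_4. Per kilobase these were 268246 ± 16512 and 248972 ± 15411, followed by the cytoskeletal actin Actb at 150774 ± 11648. The next 9 were the ribosomal protein genes Rplp1, Rplp0, Rps3a1, Rpl4, Rps15 and Rpl8, the elongation factor Eef2, the chromatin protein gene Ptma (78878 ± 5135) and the chaperone Hsp90ab1 (72082 ± 5488). Ribosomal protein genes were 6 of the 12, 26 of the top 50 and 45 of the top 100 coding genes. Copies in the genome make such values uncertain. Of the windows of 31 bases in Eef1a1, 51.5% also occur in transcripts of another gene, and for Rplp1 and Actb the share was 75.05% and 23.6%. How reads that fit several genes were counted is not given in the sources used here.

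Of transcripts outside the nuclear coding genes, the immunoglobulin kappa constant gene Igkc stood at 328514 ± 8209 per kilobase, Ighm, the constant gene of IgM, at 118481 ± 25913 and Ighg1, that of IgG1, at 62806 ± 17897. The noncoding transcripts AY036118 (212993 ± 33896) and Gm42418 (134078 ± 20762) ranked among the top 12 genes overall. They are not separate loci. On chromosome 17, AY036118 (39847113 to 39848035) lies within Gm42418 (39846958 to 39848788), and both were highest in WT_7 and lowest in WT_288. The mitochondrial mRNAs fell into 2 groups that do not overlap. Of the 13, 7 had between 108040.0 reads per kilobase (mt-Nd4) and 656935 (mt-Co1). The other 6, mt-Co2, mt-Atp8, mt-Atp6, mt-Co3, mt-Nd3 and mt-Nd4l, lie side by side on the mitochondrial genome and had 108 to 595. For 5 of these 6, 98.1% to 100% of the 31-base windows also occur in another annotated transcript, against 0% (mt-Nd1) to 63.9% (mt-Co1) for the 7 high ones. Among the low ones mt-Atp8 is the exception at 7.47%. The part of shared sequence in these low counts was not tested.

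Lists that describe the working cell stood high. The 15 spliceosome genes had a median rank above 97.2% of genes, led by the RNA-binding proteins Hnrnpa2b1 (19352 ± 722 per kilobase) and Hnrnpa1 (17485 ± 791). The 14 glycolysis genes had a median rank above 95.2%, led by Ldha (13668 ± 971) and Pkm (12404 ± 1009), while the entry enzymes Hk1 (463 ± 52.7) and Hk2 (401 ± 27.1) were low. All 18 mitosis genes were in the set, from Cenpf (1310.2 ± 63.8) to Top2a (12392 ± 657). The 16 replication licensing and origin genes were led by the helicase subunits Mcm6 (12401 ± 739), Mcm3 (12022 ± 1043), Mcm5 (11667 ± 965) and Mcm4 (10762 ± 1009). Their sums were 76386 in WT_7, 84738 in WT_4, 79424 in WT_288, 73113 in WT_41 and 72809.7 in WT_46, and WT_4 was the highest library for 14 of the 16, against 23.8% of all genes described. WT_4 was also highest for 10 of the 14 glycolysis genes. Immediate early and heat shock genes, which rise quickly after receptor signals or handling of cells, were uneven. Junb (2608 ± 147 per kilobase), the RNA decay factor Zfp36 (2548 ± 303) and the chaperones Dnajb1 (2212 ± 133) and Hsph1 (1949 ± 438) led. Fos (75.3 ± 25.6) and Jun (89.5 ± 69.3) were far lower, and Jun was highest in WT_46, at 678 against 147 to 217 in the other libraries. The 17 proteasome core subunits were all in the set, led by Psmb8 (8918 ± 929.8), the subunit of the immunoproteasome, Psma6 (8622 ± 369) and Psmb2 (8161 ± 447).

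Transcription factors of the B lineage spanned more than 3 orders of magnitude on the per kilobase scale. The highest of the 36 was Pou2af1, the coactivator OBF-1 required for germinal centers, with 153807 in WT_7, 151524 in WT_4, 178178 in WT_288, 135394 in WT_41 and 151732 in WT_46 normalized counts, highest in WT_288. Per kilobase it stood at 60466 ± 6020.5. Below it lay Spib (26229 ± 962), an ETS family factor, Mef2b (21184 ± 2855), Ikzf1 (13926 ± 949), which encodes Ikaros, Pax5 (10317 ± 1280.2), the B cell identity factor, and Mybl1 (9366 ± 1199.7). Bcl6 was 11th. At the low end stood Zeb2 (47.9 ± 4.39), Prdm1 (96.9 ± 33.7), which encodes the plasma cell factor BLIMP1, Id2 (261 ± 62.9) and Myb (283 ± 38.7). In 25 of the 35 pairs of neighbours in this order the ranges over the 5 libraries overlapped. In 5 of these 25 the order was still the same within every library, and in the other 20 it changed in at least 1 library. The ranges were apart between Pou2af1 and Spib, between Mef2b and Ikzf1, between Ikzf1 and Pax5, and between Prdm1 and Zeb2, for example. WT_46 was the lowest library for 21 of the 36 factors, against 25.9% of all genes described. It was the highest for 9, against 26.7% of all genes.

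**Figure D2:**
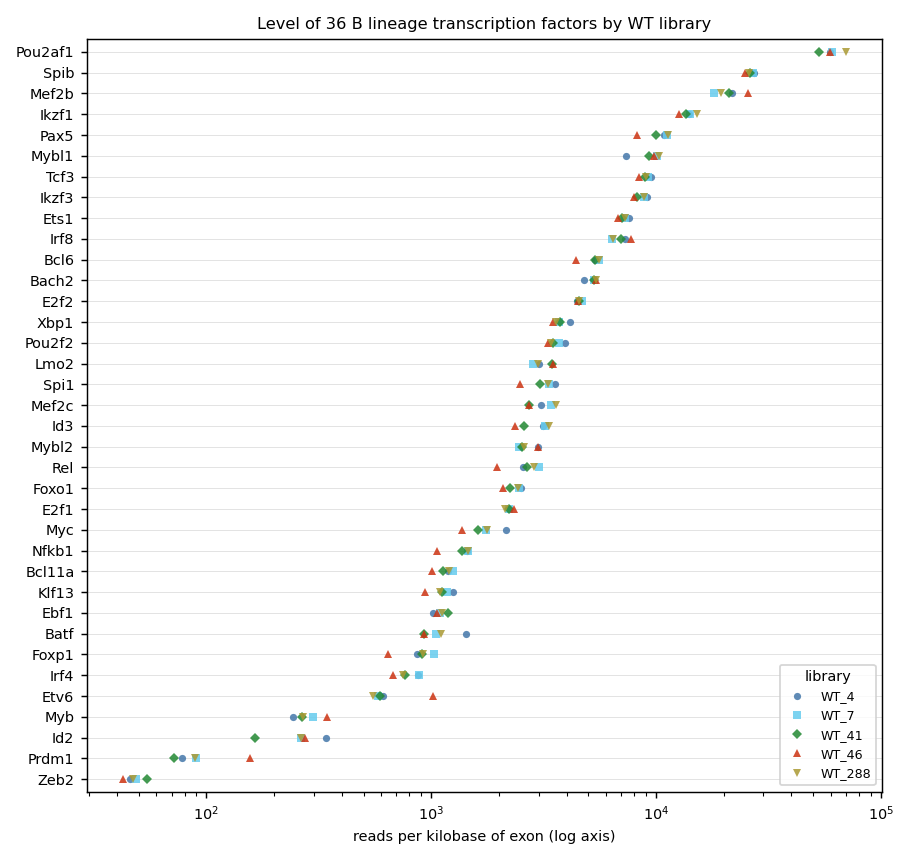
Reads per kilobase (x axis, log scale) of 36 transcription factors of the B lineage, ordered by mean, with 1 symbol per WT library. Pou2af1 lies alone at the top near 60466, Prdm1 and Zeb2 lie at the bottom, and WT_46 lies to the left of the other libraries for genes such as Pax5, Bcl6, Rel, Nfkb1 and Foxp1 and to the right for Etv6 and Prdm1.

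Paralog use was examined in 87 families with 320 genes, of which 274 reached a mean of 10 and 13 were at 0 in all 5 libraries. A gene's share is its part of the family's summed reads per kilobase, taken in each library and averaged. In 43 of the 87 families 1 gene held at least 80%, in 13 it held over 99%, and in 8 the leader held under 50%. The leader was the same in all 5 libraries in 84 families, and the median SD of its share was 0.878 percentage points. Just inside the threshold lay Plk1 (80.3%) and Actb (80.5%), and just outside it lay Gna13 (79.997%) and Gnai2 (79.5%). The share of families with such a leader differed by role, from 7 of 10 in the cell cycle, 8 of 12 in metabolism and 11 of 18 among cytoskeletal and housekeeping families to 5 of 10 in chromatin, 6 of 13 in receptor signalling, 6 of 14 in transcription and 0 of 10 in the families of follicle positioning, mutation and survival together. In each of the 29 families of 2 genes the same gene was higher in all 5 libraries, the gene listed first in 19 and the other in 10. With 5 libraries the smallest p that an exact two-sided sign-flip permutation test allows is 0.063, also after Benjamini-Hochberg adjustment over the 29, so no pair could pass 0.05.

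Receptors that place the cell in the follicle were shared between paralogs more than most. S1pr2 held 67.5% in WT_7, 69.7% in WT_4, 71.1% in WT_288, 66.5% in WT_41 and 77.01% in WT_46 of the sphingosine-1-phosphate receptor family. Its share was highest in WT_46, above the range of the other 4, and lowest in WT_41, and its SD of 4.14 points was the largest of all 87 leaders. S1pr3 followed with 14.6% ± 3.12, S1pr4 with 9.76% ± 0.9299 and S1pr1, which leads cells out of lymphoid organs, with 5.24% ± 0.869. Gna13, the G protein subunit coupled to S1PR2, held 79.997% ± 2.65 against Gna12. The chemokine receptor family was divided between the dark zone receptor Cxcr4 (64.95% ± 2.02) and the light zone receptor Cxcr5 (34.1% ± 2.03), and Cxcr2 had no read. Among beta integrins Itgb2 (51.9% ± 1.82) and Itgb1 (29.9% ± 2.42) led, and Itgb6 was at 0.

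Kinases of antigen receptor signalling showed both patterns. Syk held 99.93% ± 0.0414 against Zap70, its T cell counterpart, at 8180.1 ± 361 against 6.04 ± 3.62 reads per kilobase. Zap70 was counted at 11.6 in WT_7, 8.35 in WT_4, 11.7 in WT_288, 33.7 in WT_41 and 24.9 in WT_46, and per kilobase the lowest library of Syk stood at 7619 and the highest of Zap70 at 11.3. Plcg2 held 97.3% ± 0.453 against Plcg1, Ptpn6, which encodes the phosphatase SHP-1, 93.1% ± 0.303 against Ptpn11, and Inpp5d, which encodes SHIP-1, 91.6% ± 2.02 against Inppl1. Rac2 held 81.8% ± 0.658 over Rac1 (17.9% ± 0.592), and Akt1 84.6% ± 0.816 over Akt2 (11.1% ± 0.569). Other families were spread out. The Src family was divided between Blk (40.4% ± 1.96), Lyn (29.9% ± 1.003) and Lck (17.5% ± 1.27), so Lck, best known from T cells, held the third largest share. Btk, the kinase lost in X-linked agammaglobulinemia, held 60.2% ± 3.21 and Tec 39.6% ± 3.23, while Bmx was at 0. The PI3K catalytic subunit Pik3cd held 71.8% ± 2.59, the exchange factor Vav1 71.7% ± 1.62, Prkcd 68.96% ± 3.87 over Prkcb (21.5% ± 3.19), and Rhoa 66.6% ± 2.24 over Rhoh (31.5% ± 2.46). The TRAF adaptors, which carry signals from CD40 and related receptors, had the lowest leading share of the 87 families. Traf5 held 20.96% ± 1.46 and Traf4 19.04% ± 2.48, and Traf4 led in WT_46. By mean count, without division by length, Traf1 (8963) stood above Traf5 (5946).

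In 6 of the 14 transcription factor families 1 gene held at least 80%, against 43 of all 87. Bcl6 held 99.96% ± 0.0168 against Bcl6b and Ebf1 99.92% ± 0.0751, with Ebf2 at 0. Bach2, a repressor of plasma cell genes, held 97.3% ± 0.389, Myc 98.97% ± 0.676, and Spib 89.3% ± 0.964 over Spi1 (10.7% ± 0.967), the gene of PU.1. Pou2f2 held 83.9% ± 2.17, and Pou2f3 was at 0. Mef2b held 70.9% in WT_7, 75.8% in WT_4, 71.9% in WT_288, 75.7% in WT_41 and 80.4% in WT_46 of the MEF2 family, highest in WT_46 and lowest in WT_7, with Mef2d (11.9% ± 1.43) next. By mean count, without division by length, Mef2c (48802) stood above Mef2b (29743), so this lead depends on gene length. Mybl1 held 78.6% in WT_7, 69.4% in WT_4, 78.3% in WT_288, 76.9% in WT_41 and 74.6% in WT_46 of the MYB family. WT_4 was the lowest for Mybl1, and Mybl2 (22.1% ± 3.71) and Myb (2.29% ± 0.209) followed. Foxo1 held 78.9% ± 1.61 over Foxo4 (13.5% ± 0.926), and Ikzf1 60.6% ± 1.03 over Ikzf3 (37.4% ± 0.975). The E2F family was led by E2f4 (29.1% ± 1.22) and E2f2 (26.3% ± 0.773), the NFAT family by Nfatc1 (45.4% ± 1.57) and Nfatc3 (38.1% ± 1.93), and the RUNX family by Runx3 (53.5% ± 3.37) and Runx1 (46.4% ± 3.38). The leading pairs of the Ikaros, E2F, NFAT and RUNX families and Blk with Lyn exchanged order when counts were not divided by length or when the longest transcript was used.

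In chromatin families the SD of the leading share was under 2 percentage points in all 10. It was under 1 point in 47 of all 87 families, so steady shares were not particular to chromatin. Ep300 held 68.8% in WT_7, 69.2% in WT_4, 71.2% in WT_288, 68.3% in WT_41 and 69.98% in WT_46 and Crebbp the rest, so the gene of p300 was the higher of the pair in each library, at 1490.1 ± 89.4 against 655 ± 54.8 reads per kilobase. Ezh2, the methyltransferase of Polycomb complex PRC2, held 91.02% ± 0.712 over Ezh1, the remodelling ATPase Smarca4 97.3% ± 0.243 over Smarca2, and the maintenance methyltransferase Dnmt1 98.2% ± 0.134. Tet3 held 92.9% ± 0.9697 over Tet2 (6.71% ± 0.975), at 851 ± 40.1 per kilobase. Lmnb1 held 93.3% ± 0.699 of the lamins, and Lmna stood at 1.54 ± 1.41. Hdac1 held 64.9% ± 0.4603, Hmgb2 77.03% ± 0.285 over Hmgb1 (16.1% ± 0.203) with Hmgb4 at 0, H2afz 76.8% ± 1.02 over H2afv, and H3f3b 62.6% ± 1.79 over H3f3a.

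Cell cycle families were mostly led by 1 gene. Ccnd3, the D cyclin of germinal center B cells, held 93.6% ± 1.202, Ccnd2 5.89% ± 1.23 and Ccnd1 0.542% ± 0.0552. Ccnd3 stood at 33676 in WT_7, 36618 in WT_4, 33412 in WT_288, 28362 in WT_41 and 26499 in WT_46, lower in WT_41 and WT_46 than in the other 3. Cdk4, its partner kinase, held 93.2% ± 2.71 over Cdk6. Ccna1 and Ccnb3, which act in germ cells, had no read, and Ccna2 held the whole A cyclin family. Ccnb2 held 75.2% ± 1.74 over Ccnb1 (24.8% ± 1.74), Cdc25b 86.5% ± 0.4604 over Cdc25a (7.32% ± 0.358), Aurkb 62.6% ± 0.463 over Aurka (37.2% ± 0.471), and the E cyclins were nearly even, with Ccne1 at 53.5% ± 2.55. Top2a held 83.1% ± 0.768 over Top2b, and Rrm2 90.5% ± 0.876 over Rrm2b.

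Polymerases of antibody mutation were shared with relatives. Of the translesion polymerases Polh, which makes mutations at A:T pairs, held 57.1% ± 1.65, Rev1 29.1% ± 1.37, Poli 10.2% ± 0.803 and Polk 3.64% ± 0.296.

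In 8 of the 12 metabolic families 1 gene held at least 80%. Ldha, which makes lactate from pyruvate, stood at 41040.4 in WT_7, 49794 in WT_4, 45342 in WT_288, 46195 in WT_41 and 43832 in WT_46 and held 99.99% ± 0.01095 of the lactate dehydrogenases. The runner-up Ldhc, known from testis, was counted at 0 in WT_7, 3.71 in WT_4, 0 in WT_288, 0 in WT_41 and 2.63 in WT_46. Pkm (against Pklr) and Cox6a1 (against Cox6a2) held 99.999% and 99.99% of their families. Aldoa held 98.3% ± 0.304 and Eno1 94.7% ± 0.808. Shmt2, the mitochondrial enzyme that takes carbon units from serine, held 85.6% ± 0.5799 over the cytosolic Shmt1. The other 4 were divided. Among the peroxiredoxins, which remove peroxides, Prdx1 held 53.03% ± 0.713, and among the COX7A subunits of respiratory complexes Cox7a2l held 66.9% ± 1.64. Of the hexokinases Hk1 held 49.1% in WT_7, 52.3% in WT_4, 50.6% in WT_288, 55.5% in WT_41 and 57.4% in WT_46, so Hk2 led in 1 of the 5 libraries, and Hkdc1 was at 0. The glucose transporter Slc2a1 held 77.4% ± 3.2005 over Slc2a3 (22.5% ± 3.28).

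The phosphoglycerate kinases are a pair with a listed promoter for both the gene in use and the paralog near 0. Pgk1, the somatic enzyme, stood at 18948 in WT_7, 22469.7 in WT_4, 20276 in WT_288, 19597 in WT_41 and 20005 in WT_46, and Pgk2, a testis gene that arose by retroposition, at 15.99 in WT_7, 14.9 in WT_4, 13.5 in WT_288, 20.6 in WT_41 and 21.01 in WT_46. The share of Pgk1 was 99.88% ± 0.0268, and 54.7% of its 31-base windows also occur in another transcript. Their promoters, the 250 bases before the RefSeq start in GRCm38.p6, are printed because they differ in CG pairs, which are in capitals: 17 in Pgk1 (chrX:106186850-106187099, plus strand) and 3 in Pgk2 (chr17:40208610-40208859, minus strand).
Pgk1: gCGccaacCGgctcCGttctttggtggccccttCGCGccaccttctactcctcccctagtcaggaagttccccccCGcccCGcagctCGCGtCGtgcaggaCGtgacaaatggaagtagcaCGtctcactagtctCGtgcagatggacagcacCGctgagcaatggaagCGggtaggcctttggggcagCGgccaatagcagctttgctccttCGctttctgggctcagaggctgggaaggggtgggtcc
Pgk2: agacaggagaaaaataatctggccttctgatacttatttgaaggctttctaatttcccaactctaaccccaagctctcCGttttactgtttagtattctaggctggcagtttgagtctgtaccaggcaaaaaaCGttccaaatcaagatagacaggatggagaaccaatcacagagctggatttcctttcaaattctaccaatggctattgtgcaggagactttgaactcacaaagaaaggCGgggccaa
The same count was taken over all families. A promoter was listed for 68 of the 87 leaders and 35 of the 46 family genes with a mean under 10. Where a gene had several listed promoters, the highest count was taken. The median was 18 CG pairs for leaders (quartiles 12 and 25) and 8 for the low genes (4 and 15). It was 16 for the 10215 genes of the set with a listed promoter and 6 for all 27025 genes with a listed promoter. A low CG count did not go with every silent paralog, since Ccna1, at 0, had 26.

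Structural and housekeeping families held a wide range of division. Eef1a1 held its whole family, with Eef1a2 at 0, and Myh9 held 99.88%, Pfn1 99.3% ± 0.119, Hspa8 92.995% ± 0.433 and Cfl1 91.1% ± 0.413. Coro1a, the coronin of leukocytes, held 78.8% ± 0.974, Tubb5 70.6% ± 0.0966 over Tubb4b (28.8% ± 0.104), and Hsp90ab1 80.6% ± 2.1995 over Hsp90aa1. Among the survival genes Mcl1 held 75.6% in WT_7, 73.1% in WT_4, 76.4% in WT_288, 74.9% in WT_41 and 83.6% in WT_46 of the antiapoptotic family, with WT_46 the highest. Bcl2, itself a target of repression by BCL6, held 0.254% ± 0.0479 of the family at 41.7 ± 6.32 reads per kilobase. Bcl2a1b followed Mcl1 with 13.02% ± 2.34, and 88.8% of its windows also occur in another gene, so its reads cannot be told apart from those of its near copies. Of the pore proteins Bak1 held 61.4% ± 0.878 and Bax 38.6% ± 0.873. Across the 87 leaders 9 share over 30% of their windows with other transcripts, and their shares are uncertain in the same way.

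**Figure D3:**
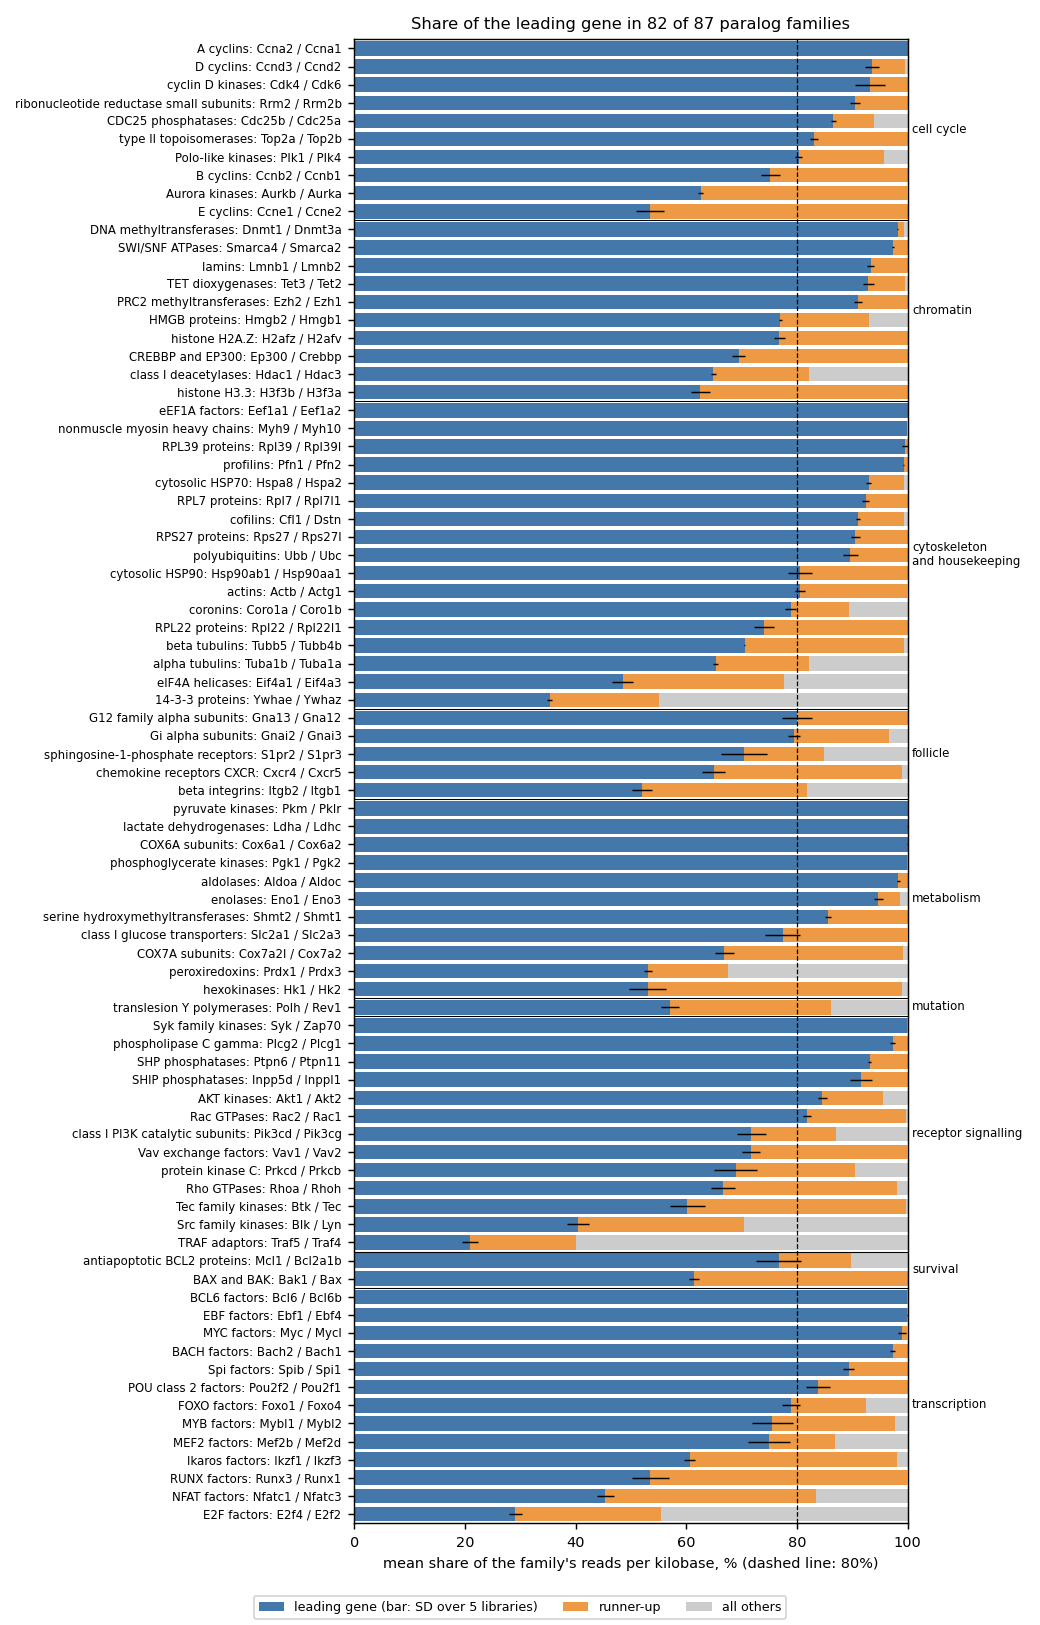
Mean share (x axis, %) of the leading gene, the runner-up and all other genes in the reads per kilobase of each of 82 of the 87 paralog families, grouped by role, with the SD of the leading share over 5 libraries as a bar and a dashed line at 80%. Metabolic families lie mostly to the right of the line, and the families of follicle positioning, mutation and survival all lie to its left or at it.

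Spread between libraries was small for most genes. The SD of log2(value + 1) over the 5 libraries had a median of 0.16 and quartiles of 0.0909 and 0.359, and the median CV was 11.01%. It fell with level. Genes with a mean of 10 to 30 had a median CV of 42.96%, of which counting error alone gives 24.9%. Genes with a mean of 30000 or more had 5.97%, with 0.4898% from counting. The highest library was at least 2 times the lowest in 22.3% of all genes, and in 119 of the 8236 genes with a mean of at least 1000. The edgeR common biological coefficient of variation was 19.2% over all 5 libraries and 14.6% without WT_46, while leaving out any other library gave 19.4% to 20.8%.

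Of genes with a mean of at least 1000, those named for the smallest CV differed little between libraries. Smpd4, a sphingomyelinase, stood at 8849 in WT_7, 8872 in WT_4, 9017 in WT_288, 8937 in WT_41 and 8939 in WT_46, a CV of 0.737%. Pih1d1, a chaperone adaptor, stood at 3236 in WT_7, 3278 in WT_4, 3255 in WT_288, 3269.6 in WT_41 and 3309 in WT_46. Apaf1, which nucleates the apoptosome, stood at 5958 in WT_7, 5951 in WT_4, 5999 in WT_288, 5869 in WT_41 and 5988 in WT_46. In all 3 the libraries differed by under 3% from lowest to highest. Next came Pias4, Vps52, Upf2, Prrc2a, Clspn, H2afv and Cog1, with CVs from 0.859% to 1.05%. H2afv, the histone variant that stands second to H2afz, was thus steadier than its leader, at 6.4996%.

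In 975 genes (5.9%) 1 library stood apart from the other 4, by a gap of over 0.71 of the whole range on the log2(value + 1) scale, the 95% critical value of Dixon's test, which chance exceeds in about 5% of genes. The total is therefore near what chance gives and is not a result. The libraries differed in how often they were the one apart. It was WT_46 in 414 genes, 188 of them high (1.14% of all genes) and 226 low (1.37%), and WT_4 in 267, with 123 high (0.744%) and 144 low (0.871%). For the other 3 the counts were lower, with WT_41 high in 34 (0.206%) and low in 77 (0.466%), WT_288 high in 35 (0.212%) and low in 57 (0.345%), and WT_7 high in 29 (0.175%) and low in 62 (0.375%). A spread of at least 3 times the median of the genes nearest in mean was found in 559 genes (3.38%). The most distant library was WT_46 in 384 of these, high in 259 and low in 125. Without WT_46 the same rule gave 381 genes, 222 of them shared with the 559. Between pairs of libraries, the median difference on the log2 scale ran from 0.119 (WT_7 and WT_288) to 0.222 (WT_4 and WT_46).

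**Figure D4:**
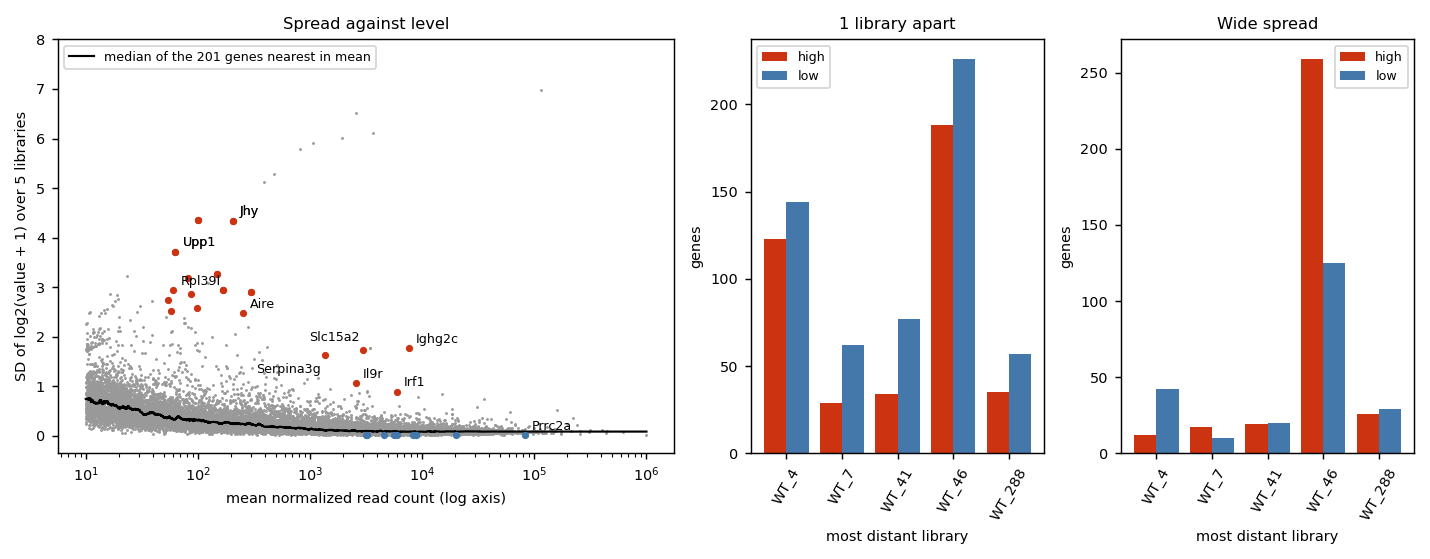
Left, SD of log2(value + 1) over 5 libraries against mean normalized read count (log axis) for the 16526 genes, with the running median as a line, the genes named for their spread in red and the steadiest in blue, and with Xist and Y-linked genes among the grey points at the top. Middle and right, the number of genes by most distant library and direction among genes with 1 library apart and among genes with wide spread, where WT_46 has 414 and 384 genes.

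Largest in spread were Xist and 4 Y-linked genes, given as their own list at the end, and 3 predicted transcripts on the X chromosome. Apart from sex-linked transcripts, predicted genes, pseudogenes and antigen receptor segments, the genes with the largest spread and a mean of at least 50 were mostly at or near 0 in some libraries and high in 1 or 2. Capn11 (chromosome 17, 45630204 to 45659325), a calpain protease, was counted at 190.5 in WT_7, 0 in WT_4, 308 in WT_288, 0 in WT_41 and 0 in WT_46. Jhy (chromosome 9, 40894849 to 40964118), a gene of ciliated cells, was counted at 0 in WT_7, 0 in WT_4, 1027 in WT_288, 0 in WT_41 and 2.63 in WT_46. Upp1 (chromosome 11, 9118103 to 9136170), a uridine phosphorylase, was counted at 0 in WT_7, 0 in WT_4, 0 in WT_288, 0 in WT_41 and 315 in WT_46. Rpl39l, a ribosomal protein paralog, stood at 0 in WT_7, 69.6 in WT_4, 70.3 in WT_288, 9.37 in WT_41 and 152 in WT_46, with WT_7 at 0. In the other 8 of the 12, the interferon-inducible GTPase Iigp1, the collagen Col5a3, the interleukin receptors Il13ra1 and Il18r1, fibronectin (Fn1), complement C4b, transferrin (Trf) and Faxc, WT_46 was highest, with 192 (Trf) to 1196 (Fn1) normalized counts. Fn1 stood at 27.6 in WT_7, 73.3 in WT_4, 4.68 in WT_288, 200.5 in WT_41 and 1196 in WT_46. Il13ra1, a chain of the interleukin 13 receptor, stood at 2.91 in WT_7, 14.9 in WT_4, 8.196 in WT_288, 18.7 in WT_41 and 792 in WT_46. WT_46 lay far above the range of the other 4 for both. Fn1, C4b and Trf are also made by macrophages or stroma. The macrophage and monocyte list, whose sum was 3653 per kilobase in WT_46 and 1474 to 1861 in the others, moved with them, and its part in these values was not tested. These genes were chosen for a large spread, so a fall is expected when their most distant library is left out. Its size differed between genes, and it is not given for Fn1 and Capn11. Without WT_46 the SD of log2(value + 1) went from 3.71 to 0 for Upp1, from 2.94 to 1.04 for Il13ra1, from 2.53 to 0.47 for Il18r1, from 2.59 to 0.94 for Faxc, from 3.19 to 1.39 for Col5a3, from 2.87 to 1.54 for C4b and from 3.26 to 2.06 for Iigp1. Without WT_288 that of Jhy went from 4.34 to 0.93. Without WT_7 that of Rpl39l went from 2.94 to 1.66 and that of Trf from 2.74 to 1.40.

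Relative to genes of like level, and with the same kinds of gene set aside, the widest spread was in Ighg2c, the constant gene of IgG2c, at 1298 in WT_7, 4956 in WT_4, 1662 in WT_288, 2493 in WT_41 and 27758 in WT_46, a spread 21.6 times that of genes of like mean. WT_46 lay above the range of the other 4. Slc15a2, a peptide transporter, stood at 2418 in WT_7, 4184 in WT_4, 257 in WT_288, 3681 in WT_41 and 4437 in WT_46, with WT_288 far below the rest. Serpina3g, a protease inhibitor of activated lymphocytes, stood at 294 in WT_7, 841 in WT_4, 286 in WT_288, 822 in WT_41 and 4581 in WT_46. Il9r, the interleukin 9 receptor of germinal center and memory B cells, stood at 1338 in WT_7, 1356 in WT_4, 1241 in WT_288, 1884 in WT_41 and 7118 in WT_46. Aire, known from the thymus, was counted at 23.3 in WT_7, 19.5 in WT_4, 21.1 in WT_288, 48.7 in WT_41 and 1156 in WT_46. Irf1, a transcription factor induced by interferons, was counted at 2796 in WT_7, 5732 in WT_4, 3023 in WT_288, 5465 in WT_41 and 12926 in WT_46. In these last 4 genes the value in WT_46 was above all others. Without WT_46 the SD of log2(value + 1) went from 1.77 to 0.84 for Ighg2c, from 1.63 to 0.88 for Serpina3g, from 1.06 to 0.27 for Il9r, from 2.47 to 0.59 for Aire and from 0.89 to 0.55 for Irf1. Without WT_288 that of Slc15a2 went from 1.73 to 0.40. WT_46 was the highest library in 10 of the 12 genes named for absolute spread and in 10 of the 12 named for relative spread, of which 6 are shared.

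Heavy chain constant genes divided WT_46 from the other libraries. Ighm stood at 259552 in WT_7, 220562 in WT_4, 239942 in WT_288, 256646 in WT_41 and 140577 in WT_46. Ighg1 stood at 183864 in WT_7, 171787 in WT_4, 191518 in WT_288, 185980.0 in WT_41 and 80818 in WT_46. For both, WT_46 lay below all others, at 0.576 and 0.441 times their mean. Ighg2b stood at 16764 in WT_7, 50413 in WT_4, 22591 in WT_288, 32323 in WT_41 and 56757 in WT_46, with WT_4 near WT_46. Ighg3 was also highest in WT_46, at 47910.4 against 25188 to 37859.5, and so was Ighe, at 1899 against 518 to 934. As a share of the reads per kilobase of the 8 constant genes, Ighg1 made up 18.2% in WT_46 and 29.5% to 32.8% in the others, and Ighg2c 12.2% against 0.425% to 1.66%. Ighm remained the largest share in each library, from 43.5% in WT_46 to 59.7% in WT_7.

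The relatives of Iigp1, Irf1 and Ighg2c, and the MHC genes, were chosen for description after their values were seen. The interferon-inducible GTPases are proteins of cell-autonomous defence, and 16 of them were in the set. WT_46 was the highest library in 15 of the 16, with a median of 3.405 times the mean of the other 4. Over all genes of the set WT_46 was highest in 26.7%, with a median of 0.995. Irgm1, a regulator of the family, stood at 733 in WT_7, 938 in WT_4, 583 in WT_288, 867 in WT_41 and 1863 in WT_46. Gbp2, a guanylate-binding protein, stood at 336 in WT_7, 545 in WT_4, 347 in WT_288, 512 in WT_41 and 1313 in WT_46. Igtp, which acts on vacuoles of parasites, stood at 865 in WT_7, 1283 in WT_4, 769 in WT_288, 950.0 in WT_41 and 2713 in WT_46. In all 3 the other libraries stayed below WT_46, and WT_4 came next. Gbp9, at 4337 in WT_7, 3495 in WT_4, 3509 in WT_288, 4838 in WT_41 and 4649.6 in WT_46, was the exception. Tgtp1, Tgtp2, Gbp10 and Gbp6 share 84.4%, 90.5%, 89.8% and 74.2% of their windows with other transcripts, and their separate values are uncertain.

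WT_46 was also highest in 18 of 21 class I pathway genes, with a median of 1.59 times the mean of the other 4, and in 1 of 11 class II pathway genes, with a median of 0.949. It was the lowest library in 6 of the 11, against 25.9% of all genes described. Nlrc5, the transactivator of class I, stood at 5462 in WT_7, 7880.0 in WT_4, 4826 in WT_288, 8314 in WT_41 and 19508 in WT_46. Ciita, the transactivator of class II, stood at 43624 in WT_7, 44943 in WT_4, 41770.4 in WT_288, 45307 in WT_41 and 41756 in WT_46, with all 5 libraries within a narrow range. B2m, the class I light chain, stood at 29274 in WT_7, 41273 in WT_4, 31083 in WT_288, 35091 in WT_41 and 53409.6 in WT_46. H2-K1, a class I heavy chain, stood at 45154 in WT_7, 57663 in WT_4, 42947 in WT_288, 61530.0 in WT_41 and 98404 in WT_46. For both the range of the other 4 lay below WT_46. The interferon-stimulated list, made mostly of genes of the type I response, showed another order, at a summed 9613 in WT_7, 11068 in WT_4, 6470.4 in WT_288, 8344 in WT_41 and 10347 in WT_46 per kilobase. There WT_46 was highest for 5 of 14 genes and WT_4 for 6, while WT_288 was lowest for 11, again against 17.1% of all genes. Among the 9 interferon regulatory factors in the set WT_46 was highest for 4, and the spread ratio was 9.89 for Irf1, 3.99 for Irf9 and at most 2.45 (Irf7) for the rest. The macrophage and monocyte list was highest in WT_46 as well, and its part in the interferon and class I values was not tested.

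Promoters of 3 of these genes are printed, with the interferon-response motif that was searched in capitals. Irf1 holds TTCNNNGAA, the core of a gamma interferon activation site (chr11:53769764-53770013, plus strand). It has 2 listed promoters, and the first that holds the motif is printed. Gbp2 (chr3:142620413-142620662, plus strand) and Tgtp2 (chr11:49064213-49064462, minus strand) hold GAAANNGAAA, the core of an interferon-stimulated response element, which in Gbp2 lies on the opposite strand. All are the 250 bases before the RefSeq start in GRCm38.p6, 5′ to 3′ along the gene.
Irf1: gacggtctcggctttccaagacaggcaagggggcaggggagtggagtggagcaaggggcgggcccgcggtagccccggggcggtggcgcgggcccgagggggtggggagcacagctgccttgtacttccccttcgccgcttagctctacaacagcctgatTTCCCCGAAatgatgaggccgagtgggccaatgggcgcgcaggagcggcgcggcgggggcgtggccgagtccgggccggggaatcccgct
Gbp2: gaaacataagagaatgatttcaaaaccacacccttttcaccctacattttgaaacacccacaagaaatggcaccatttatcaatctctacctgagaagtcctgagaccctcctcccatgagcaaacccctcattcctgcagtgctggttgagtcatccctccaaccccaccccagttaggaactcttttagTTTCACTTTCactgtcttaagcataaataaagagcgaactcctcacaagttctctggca
Tgtp2: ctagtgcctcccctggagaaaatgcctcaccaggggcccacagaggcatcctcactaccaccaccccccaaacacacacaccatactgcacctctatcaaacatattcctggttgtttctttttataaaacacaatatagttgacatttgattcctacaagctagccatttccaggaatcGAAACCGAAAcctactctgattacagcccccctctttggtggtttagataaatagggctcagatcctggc
The first base of the match lies 90, 59 and 70 bases before the start in Irf1, Gbp2 and Tgtp2. Both motifs were searched on both strands, and matches of the 2 may overlap. RefSeq listed a promoter for 10 of the 16 GTPases. A gene was counted where any of its listed promoters held the motif. GAAANNGAAA was found in all 10 and TTCNNNGAA in 6. The shares were 3.34% and 7.10% of the 10215 genes of the set with a listed promoter. They were 3.46% and 8.13% of all 27025 genes with a listed promoter. Among wide-spread genes with WT_46 high, the shares were 12.7% and 12.2% of 189 genes with a listed promoter, and with WT_46 low 3.39% and 8.47% of 59. The first of these sets includes GTPases such as Gbp2 and Tgtp2, so its shares are not separate from those of the GTPases. The promoters also differed in composition. Their median number of CG pairs was 2.5 in the GTPases, 10 with WT_46 high and 14 with WT_46 low, against 16 in the set. Another motif, TATAAA, was in 8.47% with WT_46 high and 8.47% with WT_46 low, against 4.84% of the set. The part of composition in the shares was not tested. A match is a stretch of letters and was not shown to be bound.

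**Figure D5:**
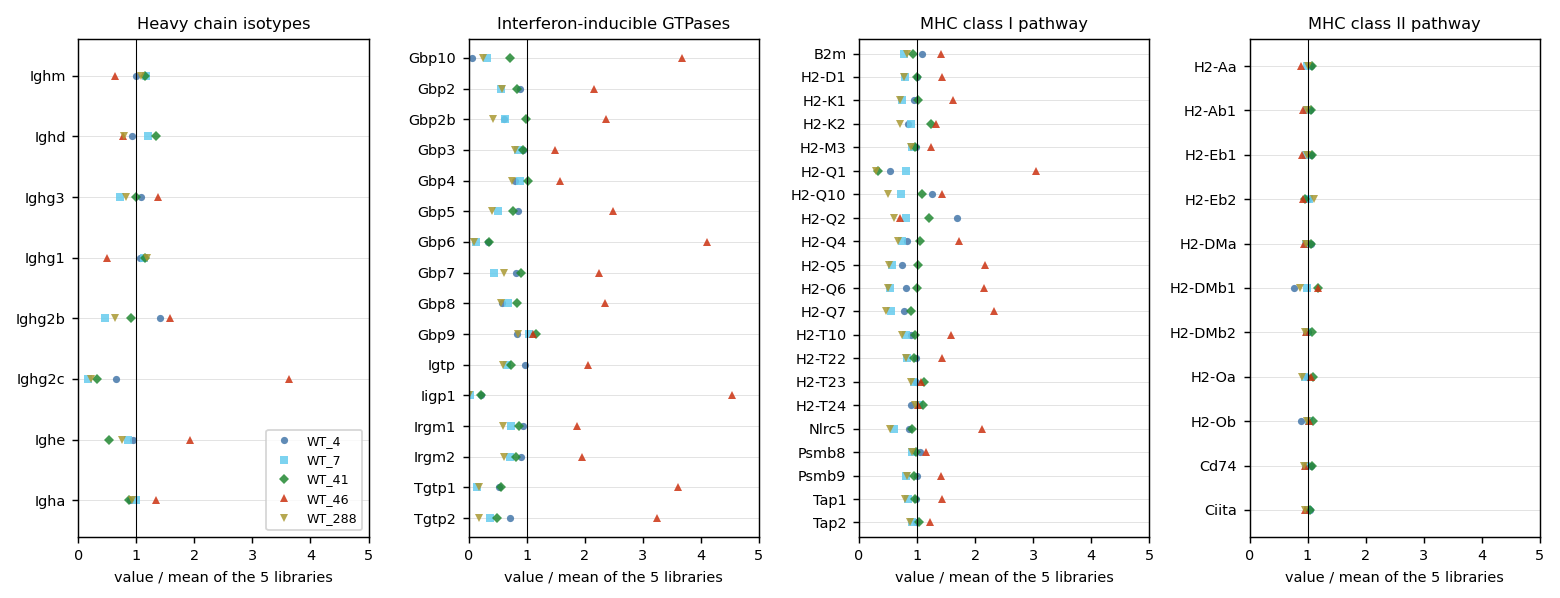
Value of each gene in each WT library divided by its mean over the 5 libraries (x axis) for heavy chain constant genes, interferon-inducible GTPases, MHC class I and MHC class II pathway genes, 1 symbol per library, with a line at 1. WT_46 lies to the right in 15 of 16 GTPases and 18 of 21 class I genes, to the left for Ighm and Ighg1, and for class II genes it is the lowest library in 6 of 11 and the highest in H2-DMb1.

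Transcripts tied to the sex chromosomes split the libraries in another way. Xist, the RNA of the inactive X chromosome, stood at 220211 in WT_7, 149307 in WT_4, 29.3 in WT_288, 25.3 in WT_41 and 211388 in WT_46, and the Y-linked gene Ddx3y at 2.91 in WT_7, 1.86 in WT_4, 9569 in WT_288, 8919 in WT_41 and 5.25 in WT_46. Eif2s3y, Kdm5d and Uty followed Ddx3y, with 1935 or more in WT_41 and WT_288 and at most 5.82 in the other 3. WT_41 and WT_288 thus carried Y-linked transcripts, and WT_4, WT_7 and WT_46 carried Xist. WT_46 and WT_4, the libraries most often apart, were both among the 3 with Xist. The part of this split in the other values was not tested.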

How the data were processed

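RNA of sorted germinal center B cells in 5 WT samples was sequenced from TruSeq RNA v2 libraries, which keep no strand, so reads of a gene and an overlapping antisense gene cannot be told apart. The deposited signal values are read counts per gene, scaled by the authors with a size factor for each library, and CASAVA 1.8, HISAT2, featureCounts, DESeq2 and the build mm10 are named per the submitters' processing notes, without settings. All deposited values were whole multiples of 1 step per library within a tolerance of 1e-06, so 100% of them gave whole reads, and depth is the sum of those reads. Groups came from the labels, and no column lacked a sample.

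Genes with a mean of at least 10 over the 5 WT columns were kept. Lengths are the union of exons in GENCODE M21 (GRCm38), found for 16428 (99.4%), and 40 symbols stand for several gene identifiers. Spread is the SD of log2(value + 1), read against the median of the genes nearest in mean, and a library stands apart where Dixon's gap ratio exceeds 0.71. Shared sequence was counted as windows of 31 bases found in a transcript of another gene. Promoters came from RefSeq (GRCm38.p6). The calls of a library apart and of wide spread were tried on simulated counts in which a library was raised. The simulated libraries varied less than these do, so the trial does not give the error rates here. Shares, ranks and lists were not tried in this way. Python 3.11.15 with pandas 2.3.3, numpy 2.4.6 and matplotlib 3.10.9, and R 4.3.3 with edgeR 4.0.16, were used.

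The members, families and lists were chosen with earlier results of these data known. The rule named up to 6 highest members of a list and those at 0, the 12 highest nuclear coding genes and the 3 highest noncoding and immunoglobulin genes, the leader, runner-up and genes at 0 of a family, the 12 genes of largest absolute and relative spread with a mean of at least 50, and the 10 of smallest CV with a mean of at least 1000, with predicted genes, pseudogenes, receptor segments and sex-linked transcripts left out of these last 3. Some genes that the rule names, and 5 families, are not reported here, although the counts include them. Names outside this rule were chosen after their values were seen. Alternatives changed the normalization, filter, pseudocount, thresholds and gene length or left out 1 library.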

Additional observations from a re-analysis of the deposited data

Results flagged for a closer look

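Of the genes named, 30 of 291 (10.3%) had 1 library apart from the other 4, against 5.9% of all genes described. The gap ratio is the distance of that library from its nearest neighbour divided by the whole range of the 5 on the log2(value + 1) scale. Chance flags about 1 in 20, and many genes were named for their spread, so the share is a description.

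WT_46 was the low library for Lyn (0.889), Ighg1 (0.874), Cd83 (0.852), Bcl2a1b (0.838), Bcl6 (0.811), Btk (0.805), Nfkb1 (0.804), Ighm (0.735), S1pr3 (0.733), Fcer2a (0.718), Cd79a (0.712) and Tnfrsf13c (0.711). It was the high library for Cdk6 (0.843), Etv6 (0.84), Il18r1 (0.8297), S1pr2 (0.796), Aire (0.7802), Il9r (0.761), Jun (0.744) and Ccdc88a (0.732). The differences were small in size for several of these: Bcl6 in WT_46 was 29529 against at least 35859 elsewhere, and Lyn 19890.5 against at least 23589.7. They were large for Aire, at 1156 against at most 48.7, and for Il9r, at 7118 against at most 1884. Upp1 was at 0 in the other 4 libraries and above 0 in WT_46, which gives a gap ratio of 1.

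WT_4 was the low library for Bach2 (0.817), Nuggc (0.777) and Rev1 (0.711). WT_288 was low for Ccr7 (0.888) and Slc15a2 (0.787) and high for Jhy (0.814), with 1027 normalized counts against at most 2.63. It was also the only library with reads of Cd3e and Hba-a1, and WT_41 the only one with reads of Pklr, again a gap ratio of 1. Pklr and Cd3e rest on a few reads, since their highest values were 1.87 and 3.51.

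Of 74 leading shares 4 had 1 library apart (5.41%). For Pkm the gap ratio was 1, since Pklr had reads in 1 library only. The share of Cdk4 was low in WT_46 (0.838), at 88.4% against 93.9% to 94.9%, where Cdk6 stood at 5079 in WT_7, 5164 in WT_4, 5703 in WT_288, 5543 in WT_41 and 10628 in WT_46. Shares in WT_4 were apart for Cox6a1 (0.771, low) and Bak1 (0.756, high). Of 25 list sums 2 were flagged, the macrophage and monocyte list, high in WT_46 (0.743), and the dendritic cell list, low in WT_288 (0.727), with 1184 reads per kilobase against 1453 to 1569. The dendritic cell sum rested on Flt3 and Bst2. In WT_288 Bst2 stood at 482 per kilobase against 619 to 822, while Flt3 stood at 681 there and at 670 in WT_4. WT_288 was the lowest library for 2 of the 5 dendritic cell genes in the set, against 17.1% of all genes described. The share of immunoglobulin transcripts in all values was low in WT_46 (0.751).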

How the results depend on the processing

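Leaving out 1 library at a time kept each of the 11 main results within 1 SD or, for counts, within 1.5 times: genes in the set 16410.0 to 16574, the share of the top 100 genes 17.4% to 17.6%, genes in the top 100 of every library 90 to 92, the median spread 0.14 to 0.16, genes with 1 library apart 856 to 1103, genes with wide spread 381 (without WT_46) to 755 (without WT_4), families led by 1 gene 43 to 44, families with 1 leader 84 to 85, pairs 19, the mean percentile of the 4 markers 95.4 to 95.6 and other cell markers 32 to 36. A mean over the libraries, such as the share of the top 100 genes, cannot move by 1 SD of those libraries when 1 is left out. For such results the limit of 1 SD was met in advance and does not test their stability. The normalization (edgeR TMM or reads scaled to library depth) and the pseudocount (0.5 or 10) moved none of the results they were run on beyond 1 SD or 1.5 times. The filter did: the median spread was 0.13 with a mean of at least 50 and 0.35 with a mean above 0, genes with 1 library apart were 3785 with a mean above 0, which tests more genes, and other cell markers were 17 with a mean of at least 50. A spread threshold of 2 gave 1636 genes.

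The measure of length decides some paralog orders. Without division by length the log2 ratio of leader to runner-up was -0.16 for Blk over Lyn, -0.40 for Nfatc1 over Nfatc3, -1.06 for Runx3 over Runx1, -0.85 for E2f4 over E2f2 and -0.20 for Ccne1 over Ccne2. With the longest transcript it was -0.078 for Nfatc1 over Nfatc3, -0.068 for Ikzf1 over Ikzf3 and -0.47 for Runx3 over Runx1. The other ratios under these alternatives kept their direction. Of these, 24 were labelled as moved with a library left out, 49 with the longest transcript and 64 without division by length. This label covers moves of over 1 SD and also every ratio with no SD, whatever its change. A ratio has no SD where the runner-up had no read in at least 1 library, so these counts overstate the moves. A ratio averaged over the libraries cannot move by 1 SD of those libraries when 1 is left out, so that label does not test its stability. Only the leader and the runner-up were set against each other, so a change of lead to another gene does not show in these ratios. By mean count, without division by length, Mef2c (48802) stood above Mef2b (29743) and Traf1 (8963) above Traf5 (5946). Counting error is a large part of the spread only at low means. No paired analysis was possible because 1 group was described and the groups of the series share no replicate numbers.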

Other observations

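Spread differed between kinds of gene. The median SD of log2(value + 1) was 0.125 for protein coding genes, 0.331 for processed pseudogenes and 0.547 for immunoglobulin variable genes. Levels differ between these kinds too, and their part in the spread was not tested.

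A few genes known as markers of other cells were expressed in all 5 libraries while other genes of their list were at 0. Flt3, a cytokine receptor of progenitors and dendritic cells, stood at 4355 in WT_7, 4140.5 in WT_4, 4206 in WT_288, 5148 in WT_41 and 5407 in WT_46, with Siglech at 0. Bst2, of the same list, stood at 654 in WT_7, 743 in WT_4, 435 in WT_288, 559 in WT_41 and 573 in WT_46. Pecam1, an adhesion molecule of endothelium and leukocytes, stood at 4059 in WT_7, 3889 in WT_4, 3859 in WT_288, 4128 in WT_41 and 3234 in WT_46, with Col3a1 at 0 and Kdr at 0 in all libraries but WT_46 (10.5). Cxcl13, the chemokine of follicular stroma, was at 49.9 in WT_46, 3.75 in WT_41 and 0 in the other 3.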
